A study of Arabidopsis thaliana with 12 samples.

Results

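Transcripts of 4 genes of the pentose phosphate pathway were followed in Arabidopsis thaliana roots on 12 Affymetrix ATH1 arrays. The genes were chosen by name, each through 1 probe set, out of 22746 probe sets that were not controls. They were the 6-phosphogluconate dehydrogenases PGD1 (AT1G64190), PGD3 (AT5G41670) and PGD2 (AT3G02360), and TRA1 (AT1G12230), a transaldolase. All 4 passed the filter on low signals and stood above the 40th percentile of every array in every group.

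The arrays formed 4 groups of 3: chl1-5 at T0.5, chl1-5 at T0, wild type at T0.5 and wild type at T0. The chl1-5 plants lack a working CHL1, a nitrate transporter of the plasma membrane, and were set beside the wild type, both of the Columbia ecotype. Plants of both genotypes were 10 days old and had been raised at pH 6.5 without nitrate, on 12.5 mM ammonium succinate with 0.5% sucrose. They were then kept for 3 h on that ammonium salt at pH 5.5. T0 roots were taken then, and T0.5 roots after a further 30 min in medium that held 25 mM KNO3 in place of the ammonium salt. Each replicate pooled about 900 seedlings from 9 vessels, and each replicate number occurs once in each of the 4 groups. The step from T0 to T0.5 thus holds the transfer, the potassium given with nitrate and the loss of ammonium succinate as well as nitrate itself. No array of a chloride transfer was analysed here. The design asks how roots answer nitrate and how far the answer differs in chl1-5.

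The oxidative branch of the pentose phosphate pathway oxidises glucose 6-phosphate and regenerates NADPH. 6-phosphogluconate dehydrogenase carries out its last oxidation and releases ribulose 5-phosphate. Transaldolase belongs to the reversible branch, which shuffles carbon between sugar phosphates and makes no NADPH. In root plastids, which have no photosynthetic electron flow, NADPH from this pathway supplies the electrons for nitrite reduction and for glutamate synthase. In Arabidopsis the PGD1 and PGD3 proteins are known from the cytosol and the plastids, and PGD2 from the cytosol and the peroxisomes.

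Signals are MAS5 intensities on a linear scale, 1 per probe set, which the authors had scaled so that the trimmed mean of every array lay between 499.4 and 500.6. Signals of different probe sets are not compared as levels, since each binds with its own strength. The root label was checked with listed marker genes, of which 2 of 15 root and 4 of 15 shoot markers had a named probe set. PYK10, a beta-glucosidase abundant in roots, read 15467.3 to 22198.4 over the 12 arrays, and the root hair expansin EXP7 read 627.0 to 1409.7. The photosynthesis genes PRK (19.2 to 51.5) and SBPASE (41.2 to 86.3) were below the 40th percentile on every array. PORB read 59.8 to 113.5 and reached that percentile on some arrays. RCA, Rubisco activase, read 538.9 to 697.8 and was above it on every array. The ratio of the 3' to the 5' GAPDH control probe sets, a sign of RNA quality, lay between 0.86 and 1.38, and its ranges overlapped within each pair of groups compared below. CHL1 itself was not among the named probe sets, so the mutated gene was not checked.

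PGD1 was several times higher after nitrate in both genotypes. In chl1-5 roots it read 8177.9, 10371.1 and 10501.9 at T0.5 in replicates 1, 2 and 3, against 3240.9, 3714.2 and 3699.6 at T0. In wild-type roots the readings were 11797.4, 14542.7 and 13323.8 at T0.5, against 3411.5, 3630.0 and 3660.5 at T0. All 6 arrays at T0.5 thus lay above all 6 arrays at T0, and at T0.5 the 3 chl1-5 arrays lay below the 3 wild-type arrays. The group means were 9684 ± 1310 at T0.5 and 3552 ± 269 at T0 in chl1-5, and 13221 ± 1380 at T0.5 and 3567 ± 136 at T0 in wild type (SD, n = 3 arrays each). PGD1 rose 2.71-fold in chl1-5 (95% interval 2.29 to 3.22, log2 1.44, SE 0.11, limma adjusted p = 1.35e-05). In wild type it rose 3.69-fold (3.11 to 4.39, log2 1.89, SE 0.11, limma adjusted p = 6.27e-07).

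PGD3 rose as well, with a wider spread between replicates. Its chl1-5 signals were 3860.1, 4507.9 and 2552.9 at T0.5, against 1261.0, 1451.7 and 1310.6 at T0. In wild type they were 6360.6, 8173.7 and 5296.7 at T0.5, against 1388.3, 1507.0 and 1274.1 at T0. Again no array at T0.5 overlapped one at T0, and at T0.5 every chl1-5 array lay below every wild-type array. Replicate 3 gave the lowest PGD3 signal at T0.5 in both genotypes, which PGD1 did not show. Means were 3640 ± 996 and 1341 ± 98.9 in chl1-5 at T0.5 and T0, and 6610 ± 1450 and 1390 ± 116 in wild type at T0.5 and T0 (SD, n = 3 each). The rise was 2.65-fold in chl1-5 (95% interval 1.97 to 3.56, log2 1.40, SE 0.20, limma adjusted p = 0.00137) and 4.69-fold in wild type (3.49 to 6.31, log2 2.23, SE 0.20, adjusted p = 1.77e-05). Without the 4 arrays of replicate number 2, the rise in chl1-5 was 1.29 on the log2 scale and missed the threshold (adjusted p = 0.0604).

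For PGD2, the remaining 6-phosphogluconate dehydrogenase, no change was detected in either genotype. It read 5207.8, 6565.8 and 5944.7 in chl1-5 at T0.5, against 5593.5, 6617.1 and 5685.0 at T0. In wild type it read 5643.0, 6293.5 and 5716.2 at T0.5, against 5589.9, 6509.0 and 5868.7 at T0. The groups overlapped fully, the highest of the 12 signals was 1.27 times the lowest, and in each group replicate 2 was the highest. The change was -0.02 on the log2 scale in both genotypes (SE 0.11 each, limma adjusted p = 0.962 in chl1-5 and 0.930 in wild type). The 95% intervals of the fold ran from 0.841 to 1.16 in chl1-5 and from 0.836 to 1.16 in wild type. With the replicate number as a block the intervals were narrower, from -0.15 to 0.12 in chl1-5 and from -0.16 to 0.11 in wild type on the log2 scale (SE 0.06 each). A change of PGD2 of the size seen for PGD1 or PGD3 lies outside all of these intervals.

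TRA1 did not pass the test in either genotype. Its signals were 1239.0, 990.5 and 1017.5 in chl1-5 at T0.5, against 1133.1, 1296.5 and 1214.0 at T0. In wild type they were 1182.9, 1102.2 and 1215.2 at T0.5, against 1157.1, 1260.0 and 1108.9 at T0. The groups overlapped in each genotype, although replicates 2 and 3 of chl1-5 at T0.5 were the 2 lowest of all 12 signals. The log2 change was -0.17 in chl1-5 (95% interval -0.41 to 0.07, limma adjusted p = 0.481) and -0.01 in wild type (-0.25 to 0.23, adjusted p = 0.974). TRA1 also lies near CHL1 on chromosome 1, with 15 genes between them in the TAIR10.1 gene table. Its probe set kept its signal in the mutant, with means of 1215 ± 81.7 in chl1-5 and 1175 ± 77.2 in wild type at T0 (SD, n = 3 each).

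**Figure D1:**
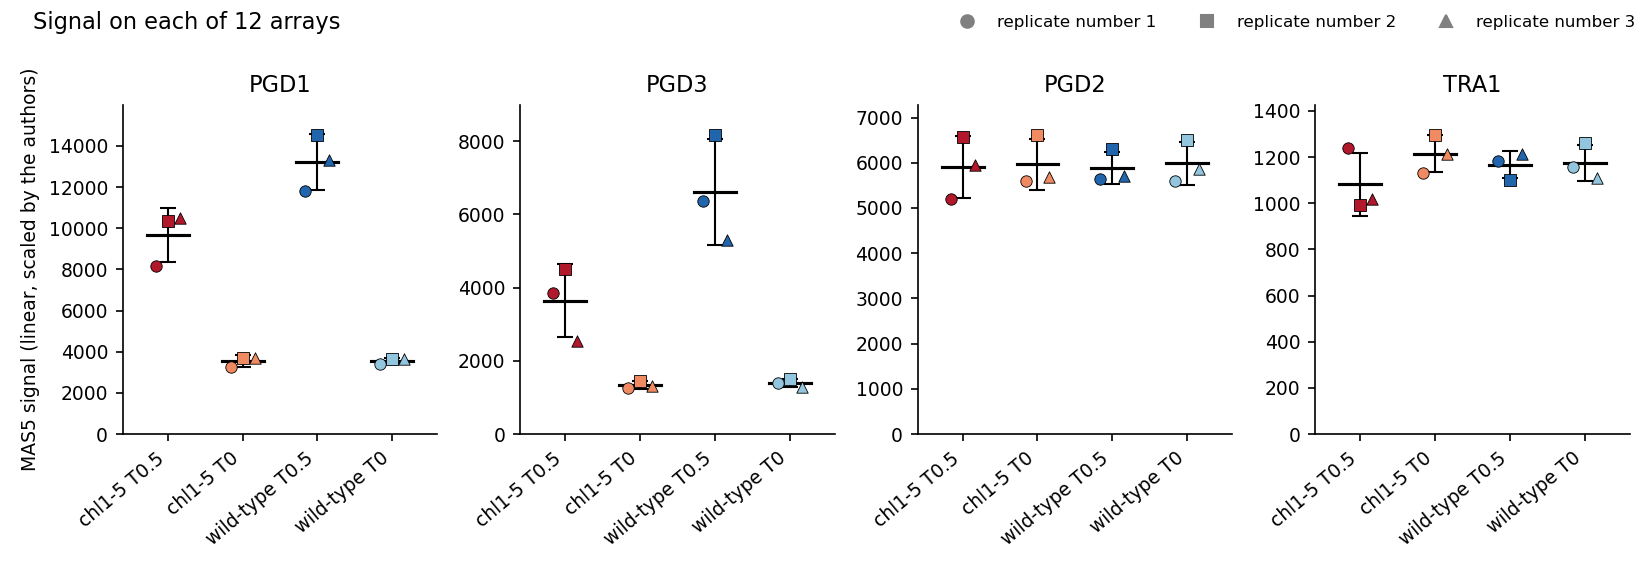
MAS5 signal (linear axis from 0, each panel on its own scale) of PGD1, PGD3, PGD2 and TRA1 on each array, by group, with the marker shape giving the replicate number and black lines the mean and SD of 3 arrays. PGD1 and PGD3 are high in the T0.5 groups, with means of 9684 and 3640 in chl1-5 and 13221 and 6610 in wild type, while PGD2 and TRA1 lie at like heights in all 4 groups.

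Of the 4 genes, 2 were thus called higher in chl1-5 and 2 in wild type, and none lower. Over all 14291 probe sets tested, limma called 2.71% higher in chl1-5 and 3.44% higher in wild type at an adjusted p under 0.05. Arrays at T0.5 and T0 did not overlap for PGD1 and PGD3 in either genotype, as for 19.8% of all probe sets in chl1-5 and 25.3% in wild type. Averaged over both genotypes, PGD1 rose 3.17-fold (95% interval 2.80 to 3.58, limma adjusted p = 5.29e-08) and PGD3 3.52-fold (2.86 to 4.34, adjusted p = 3.05e-06), where 6.42% of all probe sets were called higher. The averages for PGD2 and TRA1 were -0.02 and -0.09 on the log2 scale (adjusted p = 0.891 and 0.486). The 4 genes were chosen with these responses known, so the counts describe them and test nothing about the pathway. The median change of the 4 was 0.69 in chl1-5 and 0.94 in wild type on the log2 scale, beside -0.06 and -0.09 over all probe sets tested. Ordered from the largest rise down, PGD1 stood at place 171 in chl1-5 and 125 in wild type, and PGD3 at 182 in chl1-5 and 80 in wild type. As the arrays hold whole roots, more RNA per cell and more cells of a type that expresses a gene cannot be told apart. EXP7, the root hair marker, fell over the same step by 0.73 in chl1-5 and by 0.79 in wild type on the log2 scale (SE 0.17 each, limma adjusted p = 0.0334 and 0.0172), while PYK10 stood at 0.09 and 0.05. Whether a shift among root cells has a part in the PGD1 and PGD3 changes was not tested.

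**Figure D2:**
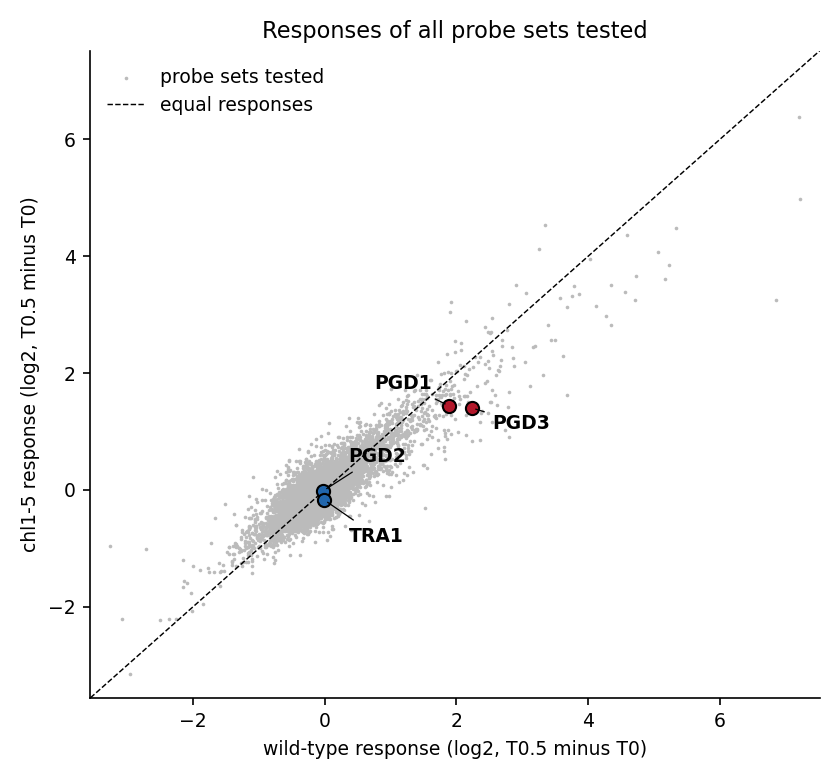
Log2 change from T0 to T0.5 of each of 14291 probe sets tested, in chl1-5 (vertical axis) and wild type (horizontal axis), with the 4 genes marked and the dashed line at equal changes. PGD1 (1.44 in chl1-5 and 1.89 in wild type) and PGD3 (1.40 in chl1-5 and 2.23 in wild type) lie to the upper right of the dense cloud and below the dashed line. Probe sets with larger rises lie beyond them, and PGD2 and TRA1 lie inside the dense cloud around 0.

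Few other genes of the pathway could be read. Of 21 further listed pentose phosphate genes, among them the glucose-6-phosphate dehydrogenases, 6-phosphogluconolactonases and transketolases, 3 had a named probe set, and the other 18 were not analysed here. AT1G63290 and AT3G01850, entered on the list as relatives of ribulose-phosphate epimerase, the enzyme that acts on the product of 6-phosphogluconate dehydrogenase, were tested. AT1G63290 stood at -0.13 in chl1-5 and at -0.18 in wild type on the log2 scale (SE 0.10 each, limma adjusted p = 0.593 and 0.370). AT3G01850 stood at -0.07 in chl1-5 and at -0.02 in wild type (SE 0.13 each, adjusted p = 0.865 and 0.947). AT5G44520, listed as the ribose-phosphate isomerase RPI4, read 62.3 to 102.1 and was below the 40th percentile on every array, so it was not tested. Of these 2 tested genes 0 were called in either direction by limma, 0 had an unadjusted p under 0.05, and their median change was -0.10 in each genotype.

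Of 15 listed genes for users and other sources of reductant, 1 had a named probe set. This was cICDH (AT1G65930), the cytosolic NADP-dependent isocitrate dehydrogenase, a further source of NADPH. It read between 10148.4 and 13648.8 on the 12 arrays, with a log2 change of 0.04 in chl1-5 and 0.05 in wild type (SE 0.13 each, limma adjusted p = 0.935 and 0.881). The interval of its fold ran from 0.844 to 1.24 in chl1-5 and from 0.852 to 1.26 in wild type.

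**Figure D3:**
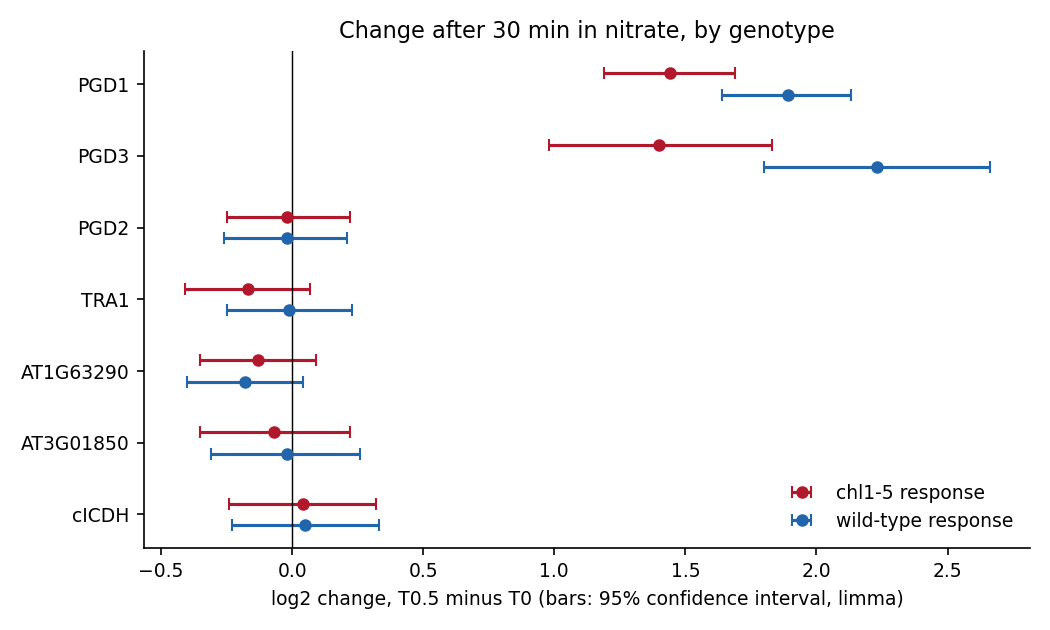
Log2 change from T0 to T0.5 with its 95% confidence interval from limma (n = 3 arrays per group), for the 4 genes and for the 3 other listed genes that could be tested, chl1-5 above wild type in each row. The intervals of PGD1 and PGD3 lie wholly above 0.9 in both genotypes, and all others include 0.

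The isoforms that responded and the one for which no change was called were set against each other within each array, as the log2 ratio of the PGD1 or PGD3 signal to the PGD2 signal. A ratio taken on 1 array is free of that array's scaling. Only its change from T0 to T0.5 is read, and since the pair was chosen for its difference in response it is described without a test. The PGD1 to PGD2 ratio was 0.65, 0.66 and 0.82 at T0.5 in chl1-5, against -0.79, -0.83 and -0.62 at T0. In wild type it was 1.06, 1.21 and 1.22 at T0.5, against -0.71, -0.84 and -0.68 at T0. At T0 the ratios of the genotypes overlapped, and at T0.5 the chl1-5 ratios lay below the wild-type ratios in every replicate.

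The change of the PGD1 to PGD2 ratio was 1.44, 1.49 and 1.44 in replicate numbers 1, 2 and 3 of chl1-5, with a mean of 1.46 ± 0.03, against 1.78, 2.05 and 1.90 in wild type, with a mean of 1.91 ± 0.14 (SD, n = 3). As a fold this was 2.75 in chl1-5 and 3.76 in wild type. For PGD3 the change of the ratio was 1.72, 1.65 and 0.90 in chl1-5 (mean 1.42 ± 0.45) and 2.18, 2.49 and 2.09 in wild type (mean 2.25 ± 0.21). The fold was 2.68 in chl1-5 and 4.77 in wild type. In all 6 pairs of arrays both isoforms gained on PGD2. The TRA1 to PGD2 ratio moved in either direction, by 0.23, -0.38 and -0.32 in chl1-5 and by 0.02, -0.14 and 0.17 in wild type.

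PGD1 and PGD3 also differed from each other between replicates. The change of the PGD3 to PGD1 ratio was 0.28, 0.15 and -0.54 in chl1-5 (mean -0.04 ± 0.44) and 0.41, 0.44 and 0.19 in wild type (mean 0.34 ± 0.13, SD, n = 3). PGD3 thus gained more than PGD1 in each wild-type pair, and in chl1-5 it gained more in 2 pairs and less in the other. Over the 12 arrays the log2 signals of PGD1 and PGD3 correlated with r = 0.96, a description that the step from T0 to T0.5 dominates. After the group means were taken out, the r was 0.04 between PGD1 and PGD3 and 0.75 between PGD1 and PGD2. These deviations still hold the replicate number, which took 89.1% of the variation of PGD2. In replicate number 1 both PGD1 (-0.15) and PGD2 (-0.1) lay lowest against their log2 means over all arrays. How far the r of 0.75 comes from the shared replicate number was not tested. How far transcripts of 1 isoform bind the probes of another was not tested.

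**Figure D4:**
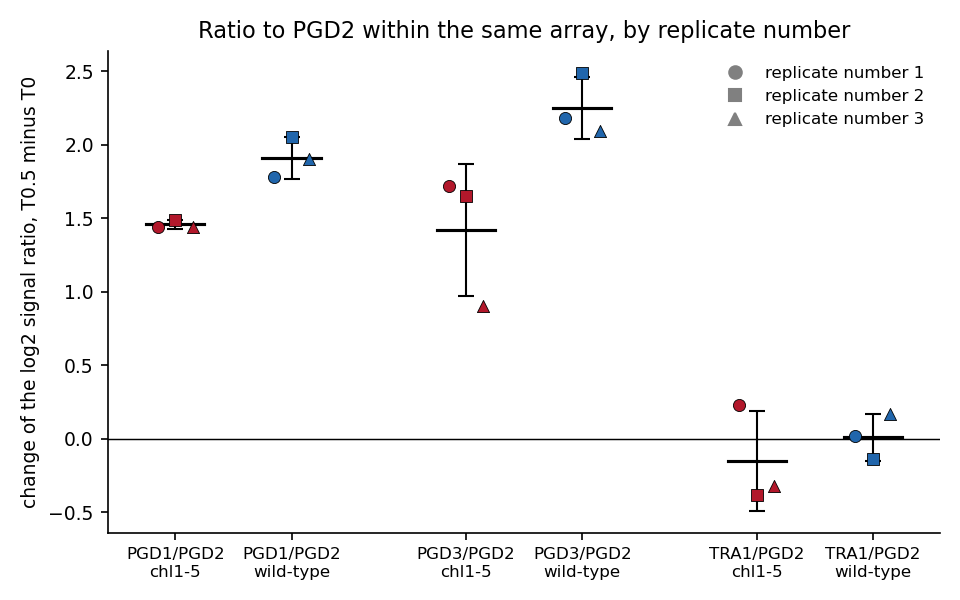
Change from T0 to T0.5 of the log2 signal ratio of PGD1, PGD3 or TRA1 to PGD2 within the same array, for each replicate number (marker shape), chl1-5 left of wild type, with black lines for the mean and SD of 3. All PGD1 and PGD3 changes lie at 0.90 or above and those of TRA1 between -0.38 and 0.23.

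How the rise of PGD1 and PGD3 compared between genotypes was examined through the difference of the responses and through the genotypes at each time. For PGD1 the response was lower in chl1-5 by 0.45, 0.52 and 0.36 in replicate numbers 1, 2 and 3, and for PGD3 by 0.58, 0.80 and 1.09, on the log2 scale. Neither gene's responses overlapped between genotypes, which held for 7.54% of all probe sets tested. Without the replicate block, the fitted difference was -0.44 for PGD1 (95% interval -0.80 to -0.09, SE 0.16) and -0.83 for PGD3 (-1.43 to -0.22, SE 0.28). With the block the intervals were narrower, from -0.66 to -0.23 for PGD1 (SE 0.10) and from -1.21 to -0.45 for PGD3 (SE 0.17). By limma over all probe sets neither passed without the block (adjusted p = 1.00 each, unadjusted p = 0.0172 and 0.0113). With the block neither passed either (limma adjusted p = 0.230 and 0.181, unadjusted p = 0.000677 and 0.000501). This comparison called 0.035% of all probe sets, and 0.119% with the block. For PGD2 and TRA1 the difference was 0.01 (-0.32 to 0.34) and -0.16 (-0.50 to 0.18).

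Before nitrate no difference between the genotypes was detected for any of the 4 genes. The log2 difference at T0, chl1-5 minus wild type, was -0.01 for PGD1 (95% interval -0.26 to 0.24), -0.05 for PGD3 (-0.48 to 0.38), -0.01 for PGD2 (-0.24 to 0.23) and 0.05 for TRA1 (-0.19 to 0.29). None passed limma (adjusted p = 1.00 each), where 0.028% of all probe sets did. The folds these intervals admit run from 0.837 to 1.18 for PGD1 and from 0.718 to 1.3 for PGD3, in the fit without the replicate block. With the block the log2 intervals were narrower, from -0.16 to 0.14 for PGD1 and from -0.32 to 0.22 for PGD3.

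At T0.5 PGD1 and PGD3 were lower in chl1-5, and whether the difference was called depended on the replicate block. The replicate numbers pair the arrays, and only the fit with the block takes this pairing into account. The intervals that follow are from the fit without it. PGD1 stood at 0.730 of the wild-type signal (95% interval 0.615 to 0.867, log2 -0.45, SE 0.11) and PGD3 at 0.544 (0.405 to 0.732, log2 -0.88, SE 0.20). Without the block neither passed limma over all probe sets (adjusted p = 0.418 and 0.209), where 0.224% of all probe sets did. With it both were called lower (log2 -0.45, SE 0.07, adjusted p = 0.00909 for PGD1; log2 -0.88, SE 0.12, adjusted p = 0.00484 for PGD3), as were 0.399% of all probe sets. The groups' arrays did not overlap for these 2 genes, which 6.46% of all probe sets shared. This comparison and the difference of responses share the T0.5 arrays, so they do not count as separate evidence. PGD2 (log2 0.00, 95% interval -0.23 to 0.23) and TRA1 (log2 -0.11, -0.35 to 0.13) were not called with or without the block.

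By group means, PGD1 and PGD3 stood highest in wild type at T0.5, next in chl1-5 at T0.5, and lowest in the pair of T0 groups, whose order was not resolved. The step between the T0.5 groups passed with the block only. No order of the 4 groups was resolved for PGD2 or TRA1.

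What each gene varied with over the 12 arrays was split into shares of the sum of squares of its log2 signal, which add up in this balanced design. For PGD1 the time took 94.7%, the genotype 1.82%, their interaction 1.69%, the replicate number 1.49% and the remainder 0.337%. For PGD3 the shares were 84.9%, 5.53%, 4.39%, 3.61% and 1.60% in the same order. PGD2 followed the replicate number, which took 89.1% of its small variation, against 0.942% for time. Its mean in replicate number 2 was 1.15 times that in numbers 1 and 3. TRA1 left 66.2% in the remainder, with 15.7% for time and 12.5% for the interaction. The median shares over all probe sets tested were 16.4% for time, 2.27% for genotype, 2.1% for the interaction, 24.6% for the replicate number and 32.9% for the remainder. The SD of the log2 signal over the 12 arrays was 0.89 for PGD1, 1.03 for PGD3, 0.11 for PGD2 and 0.12 for TRA1, beside a median of 0.22 over all probe sets tested.

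**Figure D5:**
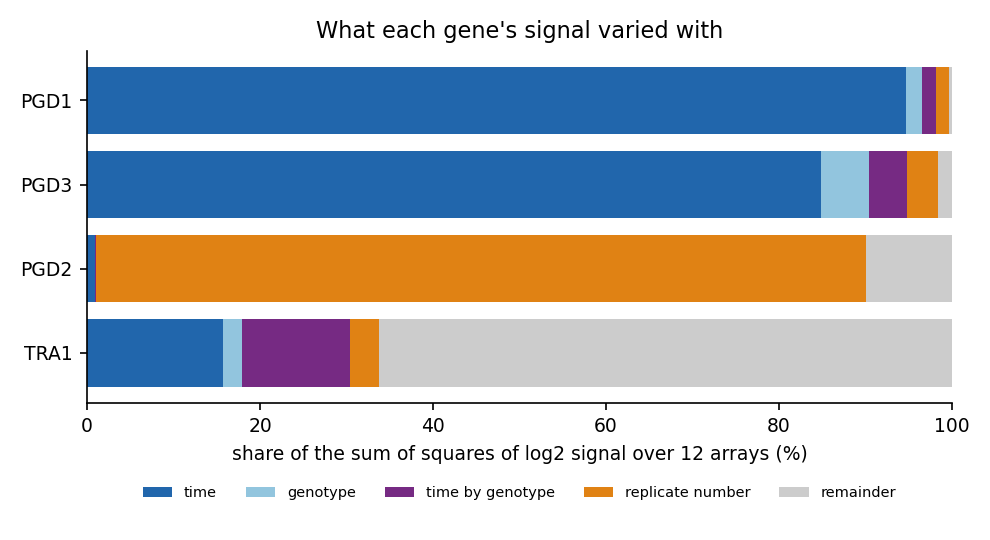
Share of each gene's sum of squares of log2 signal over 12 arrays (horizontal axis, %) that goes with time, genotype, their interaction, the replicate number and the remainder. Time fills most of the bar for PGD1 (94.7%) and PGD3 (84.9%), the replicate number for PGD2 (89.1%) and the remainder for TRA1 (66.2%).

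The named genes whose log2 signal followed each gene most closely over the 12 arrays were sought among 7708 probe sets of 1 locus, by Pearson's r and as a description. For PGD1 they were AT1G80380 (r = 0.997), AT2G48080 (r = 0.996) and AT5G20885 (r = 0.992). Their log2 changes were 3.24, 3.85 and 1.21 in chl1-5 and 4.71, 5.23 and 1.5 in wild type. Each was picked for following PGD1 on these same arrays, so the smaller change in chl1-5 comes with the choice. For PGD3 they were AT5G51830 (r = 0.983), AT1G59970 (r = 0.975) and AT1G22170 (r = 0.967), with changes of 0.98, 1.05 and 0.86 in chl1-5 and 1.82, 1.39 and 1.12 in wild type. No gene was among the 3 nearest of both. PGD2 was followed by the peroxidase PRXR1 (r = 0.919), the jacalin-related lectin JAL34 (r = 0.909) and AT1G22410 (r = 0.895), whose changes lay between -0.08 and 0.08 in both genotypes. TRA1 was followed by AT4G05400 (r = 0.898), AT2G22080 (r = 0.897) and AT1G13810 (r = 0.879), with changes of -0.19, -0.44 and -0.36 in chl1-5 and of -0.04, -0.05 and 0.01 in wild type. The points share their arrays, scaling and replicate numbers, and the highest 1% of all genes compared already reached r of at least 0.943 for PGD1, 0.900 for PGD3, 0.750 for PGD2 and 0.743 for TRA1.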

How the data were processed

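The authors' deposited intensities, 1 signal per probe set, were made with MAS5 per the submitters' processing notes, with its version not given in the sources used here. With 2% trimmed from each end, array means were all close to 500, so the authors had scaled the arrays. Of 22810 probe sets, 64 controls were left out. Signals under 0.1 were set to 0.1 before log2 was taken. A probe set was kept if 3 or more arrays read it no lower than their own 40th percentile, and the 14291 kept were fitted with limma 3.58.1 in R 4.3.3 (4 group means over 12 arrays, eBayes with trend), with two-sided tests, Benjamini-Hochberg adjustment over all of them and a threshold of 0.05. The fit was tested on simulated data for the wild-type response only, with arrays drawn independently and so without an effect of the replicate number. Precision is limited by the 3 arrays of a group. Probe sets were matched through the platform annotation to TAIR10.1 gene numbers, and 13513 had 1 gene and 503 several, which stayed unnamed. That table lists the 4 genes by locus, and their short names are those under which they were selected. The members, lists and tests were chosen with earlier results of these data known. Named are the 4 genes, listed pathway and marker genes with a probe set, and the 3 loci most correlated with each gene.

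Replicate numbers come from the titles, which call them biological replicates and do not say whether same-numbered arrays shared an experiment. The arrays were paired by these numbers. The deviations from the group means of all 18 same-numbered pairs correlated, with r from 0.21 to 0.77. The 36 other pairs across groups ran from -0.63 to -0.01. Deviations within a group cancel out, so positive values in same-numbered pairs bring negative ones among the others. Other scalings, an offset of 16, no filter, the replicate block, fits of only the compared arrays and left-out replicates were tried.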

Additional observations from a re-analysis of the deposited data

How the results depend on the processing

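The rises of PGD1 and PGD3 kept their direction in both genotypes under every alternative run (scaling, filter, offset, replicate block, fits of the compared arrays, left-out arrays and left-out replicate numbers), and their call in all but 1, that of PGD3 in chl1-5 without replicate number 2 (1.29, adjusted p = 0.0604). With left-out replicates the log2 rise of PGD1 was 1.38 to 1.56 in chl1-5 and 1.81 to 1.96 in wild type, and that of PGD3 1.23 to 1.64 in chl1-5 and 2.07 to 2.38 in wild type. The replicate block called PGD1 (-0.45) and PGD3 (-0.88) lower in chl1-5 at T0.5 and changed no other call of the 4 genes. Values near 0 that were not called changed sign. Median scaling gave PGD2 0.02 in chl1-5, 0.08 in wild type, 0.05 on average, -0.06 for the difference of responses, 0.03 between genotypes at T0 and -0.03 at T0.5. It gave TRA1 0.09 in wild type and PGD1 0.03 between genotypes at T0, and quantile normalization gave PGD2 0.00 between genotypes at T0.5. The cause was not tested.

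Left-out replicates moved PGD2 between -0.10 and 0.07 in chl1-5, -0.07 and 0.04 in wild type, -0.06 and 0.02 on average, -0.07 and 0.10 in the difference of responses, -0.08 and 0.05 between genotypes at T0 and -0.08 and 0.09 at T0.5. TRA1 lay between -0.32 and -0.06 in chl1-5, between -0.08 and 0.08 in wild type, between -0.18 and 0.01 on average and between 0.00 and 0.10 between genotypes at T0. At T0 PGD1 lay between -0.04 and 0.06 and PGD3 between -0.11 and 0.01. The change of the PGD1 to PGD2 ratio in chl1-5 lay between 1.40 and 1.52.

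Counts over all probe sets moved more. With the replicate block 1415 were called in chl1-5, against 552 without it, and 1690 against 797 in wild type, 3452 against 1998 on average, 17 against 5 for the difference of responses and 60 against 32 between genotypes at T0.5. A fit of only the compared arrays called 336 in chl1-5 and 2 between genotypes at T0, where the main count was 4. With left-out replicates the counts ran from 74 to 854 in chl1-5, 177 to 927 in wild type, 501 to 2418 on average, 0 to 4 for the difference of responses, 0 to 3 between genotypes at T0 and 2 to 21 at T0.5, with fewer arrays in each such fit.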
